A study of Mus musculus with 6 samples.

Results

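Synaptic adhesion genes were followed through H3K27me3 chromatin immunoprecipitation sequencing (ChIP-seq) lists of mouse granulosa cells, the somatic cells that surround the oocyte. Members were chosen by symbol alone, as protein-coding genes of 16 families: neurexins, neuroligins, LRRTM, SLITRK, LRFN, FLRT, teneurins, contactins, contactin-associated proteins, IgLON proteins, and the L1, NCAM, DSCAM, CADM, KIRREL and DPP-like families. Described here are 60 such genes of the 21900 protein-coding genes in the RefSeq annotation. The cells came from ovaries of wild type C57BL/6J mice aged 8 to 9 weeks, and were plated in 6 dishes. The labels give 30 mice as their source, while the methods of the study give a larger number for these dishes, so the number of animals per dish is uncertain. The 3 control samples received no agent, and the 3 treated samples received 25 nM dihydrotestosterone (DHT), an androgen, for 24 h. A sample is thus a dish of cultured primary cells and not an animal, and all samples share the same genotype.

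H3K27me3 is trimethylation of lysine 27 on histone H3, which Polycomb repressive complex 2 deposits and which is found on silent genes. Neurexins sit in the presynaptic membrane and bind neuroligins, LRRTM proteins and other partners across the synaptic cleft, while teneurins, FLRT proteins and the latrophilin receptors form another set of contacts. Many of these genes are known from neurons, and several are among the longest genes of the mammalian genome. Granulosa cells form no synapses, though adhesion proteins of the immunoglobulin superfamily also occur outside the nervous system.

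The study deposited 1 list of peaks per group, together with lists of the genes whose body or promoter overlapped these peaks. A call is therefore present or absent in a pool of 3 samples. Without values per sample neither the sequencing depth nor the spread between replicates is known, so no difference below carries an error or a test. The control pool held 16345 peaks and the DHT pool 3975 (24.3% of the control number), with a median fold enrichment of 3.46 and 4.21 over the background of each pool. Because the peaks are in the mm9 assembly and the annotation is GRCm38, no peak was assigned to a member here, and gene length, GC content and gene order below are those of GRCm38. The files hold no expression values, so the cell type could not be checked by expression of its markers. Of 8 granulosa cell genes looked up, Cyp19a1 was called in the gene body in control alone, Nr5a2 after DHT alone and Fshr in both, while the other 5 had no call. Each gene body list thus held 2 of these 8, against 13.0% of all protein-coding genes for control and 4.76% for DHT. The called genes were 102.2 to 215.7 kb long and those without a call 2.44 to 27.4 kb.

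Calls in gene bodies were considered first. Of the 60 members, 34 (56.7%) were in the control list, against 13.0% of all protein-coding genes. In the DHT list there were 21 members (35.0%), against a background of 4.76%. Members in both lists numbered 20, where the background for both was 2.89%, and 14 were in the control list alone, with a background of 10.1%. Only Slitrk2 was in the DHT list alone (1 of 60, 1.67%, against 1.88% of all protein-coding genes). The remaining 25 members were in neither list.

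These shares followed gene length. The median length was 294.0 kb for members and 17.1 kb for the other protein-coding genes, and 33 members (55.0%) exceeded 200 kb, compared with 4.38% of the others. Members in both lists had a median length of 906.8 kb (222.5 to 2241 kb), and those in the control list alone 386.0 kb (161.8 to 1135 kb). Members in neither list had a median of 17.3 kb (3.88 to 326.3 kb). The lengths of members in and out of the control list overlapped between 161.8 and 326.3 kb. In the DHT list the overlap was wider, since it held Slitrk2 (12.5 kb) and lacked Opcml (1135 kb).

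**Figure D1:**
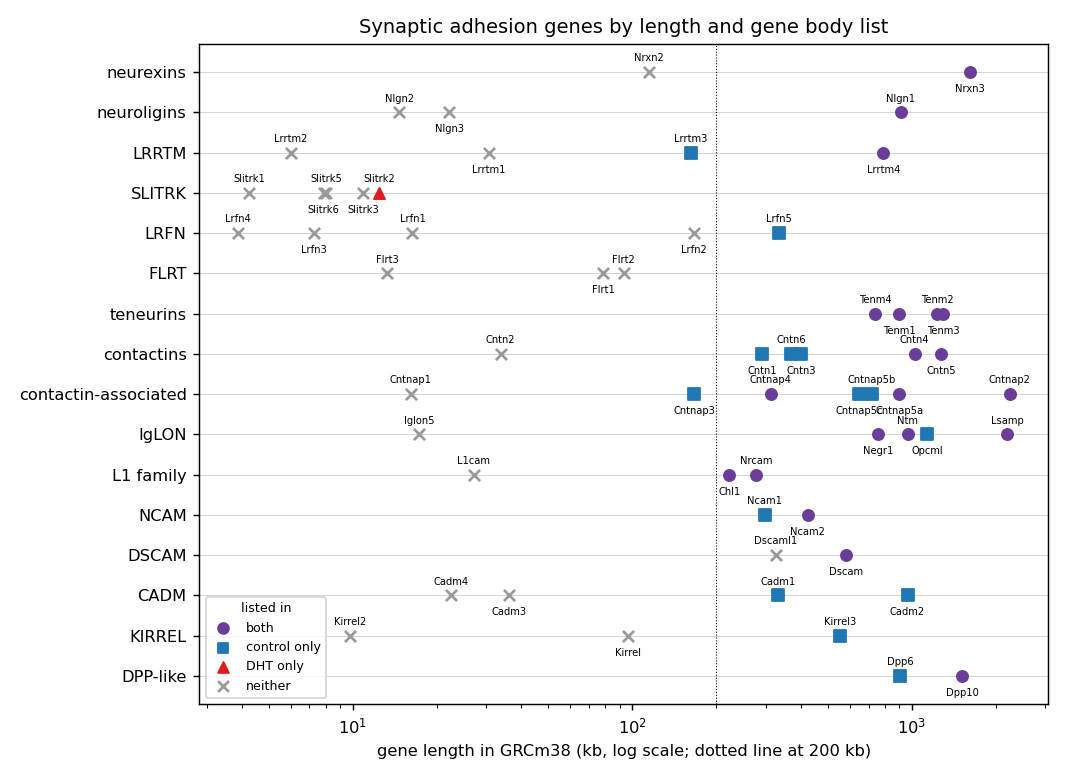
Gene length of each of the 60 members (x axis, kb, log scale) by family (y axis), with symbols for the gene body list that held the gene. All but 1 of the 33 members to the right of the dotted line at 200 kb were in the control list (32), and 20 of them were also in the DHT list; to the left of it 2 of 27 had a control call and 1 had a DHT call.

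When members were set beside genes of like length, the excess was no longer seen. In 6 bands of length, the share of other protein-coding genes listed in control rose from 4.30% under 50 kb and 25.4% from 50 to 100 kb to 48.2% from 100 to 200 kb, 74.3% from 200 to 500 kb, 97.4% from 500 to 1000 kb and 98.0% over 1000 kb. Members were at 0 of 20, 0 of 3, 2 of 4, 10 of 11, 13 of 13 and 9 of 9 in the same bands. If each member were listed at the rate of other genes in its band, 33.2 members would be in the control list, and 34 were. For the DHT list the corresponding count was 19.6, and 21 were listed. The observed counts were thus 1.02 and 1.07 times those of genes of like length, while being 56.7% and 35.0% of members against backgrounds of 13.0% and 4.76%.

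**Figure D2:**
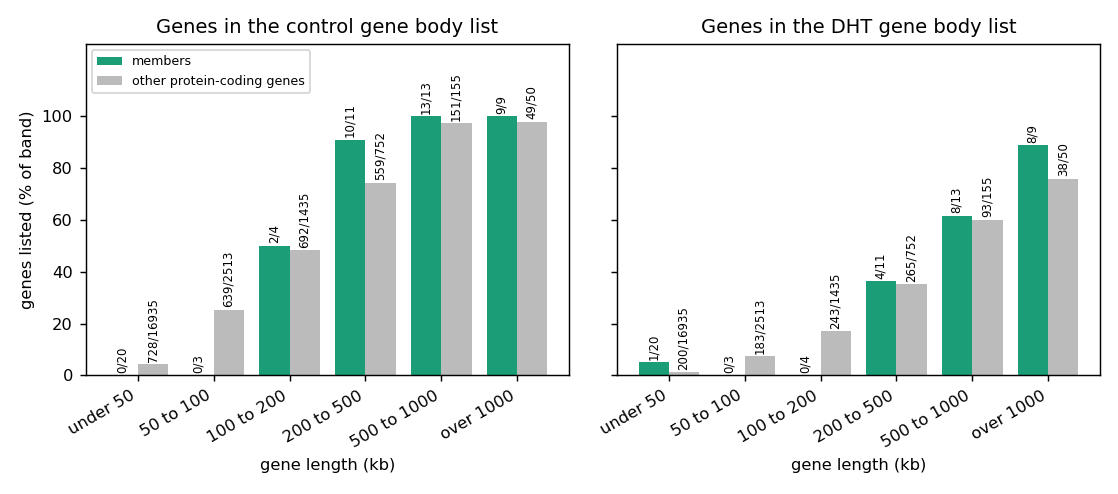
Share of genes in each length band (x axis, kb) that were in the control (left) and DHT (right) gene body lists (y axis, percent of the band), for the 60 members and the 21840 other protein-coding genes, with listed and total numbers above each bar. Both sets climb with length, and over 1000 kb 9 of 9 members were in the control list and 8 of 9 in the DHT list, against 49 and 38 of 50 other genes.

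The next question was how many members were still called after DHT. Of the 34 control-listed members, 20 (58.8%) were also in the DHT list, compared with 22.2% of all control-listed protein-coding genes. Here too the share depended on length. Among other control-listed genes it was 8.38% under 50 kb, 38.5% from 200 to 500 kb, 60.3% from 500 to 1000 kb and 75.5% over 1000 kb. Of the control-listed members, 4 of 10, 8 of 13 and 8 of 9 had a DHT call in the last 3 bands, and neither of the 2 between 100 and 200 kb did. Genes of like length would have given 18.9 kept members, so the observed 20 was 1.06 times that count.

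At the presynaptic side, Nrxn3 (1612 kb) was in both lists and Nrxn2 (114.5 kb) in neither. The neuroligins, the postsynaptic ligands of neurexins, showed the same split by length. Nlgn1 (911.1 kb) was in both lists, whereas Nlgn2 (14.7 kb), the form of inhibitory synapses, and Nlgn3 (22.2 kb) were in neither. The listed genes among these were thus the long ones.

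Most leucine-rich repeat proteins of the postsynaptic membrane have short genes. Of other protein-coding genes, 4.30% under 50 kb and 25.4% from 50 to 100 kb were in the control list. Of 4 LRRTM genes, which encode further neurexin ligands, Lrrtm4 (791.3 kb) was in both lists and Lrrtm3 (161.8 kb) in control alone, with Lrrtm1 and Lrrtm2 in neither. Of 5 LRFN genes, which encode SALM proteins, only Lrfn5 (335.1 kb) was listed, in control alone. The FLRT genes, whose products bind latrophilins and UNC5 receptors, had 0 of 3 listed, at 13.3 to 93.2 kb. The 5 SLITRK genes, whose products bind LAR-type phosphatases, are all short (4.25 to 12.5 kb), and 4 of them were in neither list. Slitrk2, at 12.5 kb on chromosome X, was the 1 member under 50 kb with a call in either list, and that call was in DHT. Other protein-coding genes under 50 kb were in the DHT list in 1.18% of cases.

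Several of these genes lie inside a longer one, so that a peak over the inner gene is also a peak of its host. In GRCm38 this held for 6 members. Lrrtm3 lies inside Ctnna3 (1574 kb, αT-catenin), which was in both lists. Lrrtm1 lies inside Ctnna2 (1098 kb) and Flrt3 inside Macrod2 (1998 kb), both in the control list alone, while Lrrtm2 lies inside Ctnna1, in the DHT list alone. Flrt1 and Lrfn4 lie inside Macrod1 and Pcx, which were in neither list. Thus 4 of 6 hosts and 1 of 6 inner genes were listed, and for Lrrtm3 the call cannot be told apart from a call of Ctnna3. Hosts were 111.3 to 1998 kb long and inner genes 3.88 to 161.8 kb. Of other protein-coding genes, 98.0% over 1000 kb and 48.2% from 100 to 200 kb were in the control list. From 50 to 100 kb and under 50 kb these shares were 25.4% and 4.30%. For the DHT list the shares were 76.0%, 16.9%, 7.28% and 1.18%, in the same order.

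Teneurins, large transmembrane proteins that bind latrophilins and each other, were the family with a call for every member in both gene body lists: Tenm1 (901.3 kb), Tenm2 (1230 kb), Tenm3 (1297 kb) and Tenm4 (739.9 kb). Calls are frequent at such lengths. From 500 to 1000 kb, the band of Tenm1 and Tenm4, 97.4% of other protein-coding genes had a control call and 60.0% a DHT call. Over 1000 kb, the band of Tenm2 and Tenm3, the shares were 98.0% and 76.0%. Teneurins also held the calls in promoters. Of the 60 members, 2 (3.33%) were in the control promoter list, Tenm2 and Tenm4, where 0.612% of all protein-coding genes were listed. The DHT promoter list held 0 members, with a background of 0.187%. In the study a promoter spanned 1 kb on either side of a transcription start site, and which start of Tenm2 or Tenm4 carried the peak is not given.

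To show the sequence at these starts, the 250 bases before those teneurin starts that had a window in the promoter table are given from RefSeq in GRCm38.p6, 5′ to 3′ on the strand of the gene, with CG dinucleotides, the sites of CpG methylation, in capitals (CG reads the same on either strand). These are starts of curated RefSeq transcripts, and whether transcription begins there in granulosa cells was not measured. Tenm4 had a window at its outermost start, chr7:96170994-96171243, and one 40.4 kb further in, chr7:96211421-96211670, both on the plus strand. The windows of Tenm2 (chr11:36944242-36944491), Tenm3 (chr8:48674691-48674940) and Tenm1 (chrX:43274785-43275034) are on the minus strand, at starts 292.8, 848.1 and 154.4 kb inside the annotated gene. The outermost starts of these 3 genes are not shown, and the Tenm2 window may not be near the start behind its promoter call. Tenm4 and Tenm2 were in the control promoter list, and Tenm3 and Tenm1 were not.
Tenm4, first start: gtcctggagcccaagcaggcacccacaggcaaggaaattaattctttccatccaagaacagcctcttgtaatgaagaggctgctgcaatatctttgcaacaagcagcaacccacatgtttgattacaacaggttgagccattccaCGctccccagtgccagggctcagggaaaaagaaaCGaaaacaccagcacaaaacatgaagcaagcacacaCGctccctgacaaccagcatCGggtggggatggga
Tenm4, second start: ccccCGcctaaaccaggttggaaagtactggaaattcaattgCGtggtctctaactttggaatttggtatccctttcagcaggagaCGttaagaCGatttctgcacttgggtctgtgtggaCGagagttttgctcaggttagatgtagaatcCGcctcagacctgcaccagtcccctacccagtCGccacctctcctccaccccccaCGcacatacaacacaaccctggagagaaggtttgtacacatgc
Tenm2: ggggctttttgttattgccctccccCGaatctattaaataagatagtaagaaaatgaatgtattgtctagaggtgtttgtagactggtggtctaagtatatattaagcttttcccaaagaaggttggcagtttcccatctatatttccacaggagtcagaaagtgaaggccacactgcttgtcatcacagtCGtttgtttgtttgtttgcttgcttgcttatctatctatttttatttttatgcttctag
Tenm3: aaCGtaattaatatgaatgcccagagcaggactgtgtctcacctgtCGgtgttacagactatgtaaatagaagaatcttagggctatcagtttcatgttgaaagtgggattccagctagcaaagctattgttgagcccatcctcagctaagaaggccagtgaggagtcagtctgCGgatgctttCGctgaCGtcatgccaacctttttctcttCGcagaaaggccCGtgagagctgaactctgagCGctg
Tenm1: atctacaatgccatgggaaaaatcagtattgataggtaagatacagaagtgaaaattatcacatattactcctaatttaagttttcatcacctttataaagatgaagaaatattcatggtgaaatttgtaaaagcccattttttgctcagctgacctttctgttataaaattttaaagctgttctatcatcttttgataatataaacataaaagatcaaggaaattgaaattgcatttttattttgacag

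The windows of Tenm4 held 4 and 8 CG dinucleotides and that of Tenm2 held 2, where Tenm3 held 8 and Tenm1 held 0. Over all 32851 promoter windows of this length the median was 6, and 92.1% held at least 1. Windows were found for 46 of the 60 members, with a median of 9 CG. By gene body call, the median was 8 for members in both lists, 7.5 for control alone and 12 for members in neither. The CG numbers of the teneurins with and without a promoter call overlapped. The windows of Tenm1, Tenm2 and Tenm3 are not at the outermost starts, so these numbers cannot show whether called and uncalled promoters differ.

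Contactins are GPI-anchored proteins of the axon surface, and the contactin-associated proteins (CASPR) pair with them beside nodes and at synapses. Of 6 contactin genes 5 were in the control list, and Cntn4 (1023 kb) and Cntn5 (1271 kb), the longest, were in the DHT list as well. Cntn1, Cntn3 and Cntn6, of 290.8 to 401.3 kb, were in control alone and Cntn2 (33.8 kb) in neither. Of 7 CASPR genes 6 were in the control list. Cntnap2 (2241 kb), Cntnap4 (312.9 kb) and Cntnap5a (902.6 kb) were in both lists. Cntnap5b (718.4 kb), Cntnap5c (648.9 kb) and Cntnap3 (166.4 kb) were in control alone, and Cntnap1 (16.1 kb), the form of the paranodal junction, was in neither. Length thus did not order the CASPR genes completely, since Cntnap4 was in the DHT list and the longer Cntnap5b and Cntnap5c were not. Of other protein-coding genes, 74.3% from 200 to 500 kb, 97.4% from 500 to 1000 kb and 98.0% over 1000 kb had a control call. In the DHT list these shares were 35.2%, 60.0% and 76.0%.

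Cntnap2 was also the 1 member in the study's lists of regulated genes. It was among the downregulated genes with a gene body peak, a list of 15 symbols as deposited that held 0.0639% of all protein-coding genes. The upregulated list with a gene body peak held 0 members (background 0.0959%), and the lists of genes linked to enhancers held 0 members each (background 0.269% for upregulated and 0.142% for downregulated genes). Cntnap2 had a gene body call in both control and DHT. Of other protein-coding genes over 1000 kb, 98.0% had a control call and 76.0% a DHT call. A call is only present or absent, so a change in the number or strength of peaks in Cntnap2 was not tested. The authors took the direction of regulation from separate RNA sequencing of granulosa cells with and without DHT, not from these ChIP-seq samples. The gene body peaks and enhancer links behind these lists used the ChIP-seq samples, and the lists carry no values.

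The IgLON proteins are small GPI-anchored proteins of the neuronal surface with large genes. Lsamp (2197 kb), Negr1 (754.7 kb) and Ntm (968.5 kb) were in both lists, Opcml (1135 kb) was in control alone, and Iglon5 (17.3 kb) was in neither. Opcml was the longest member called in control and not after DHT, and it lies next to Ntm, called in both, with no protein-coding gene between them. In the L1 family of neural adhesion molecules, Chl1 (222.5 kb) and Nrcam (276.4 kb) were in both lists and L1cam (27.1 kb) was in neither. Chl1 was the shortest member with a call in both lists. It lies in a run of 4 neighbouring members on chromosome 6, where Cntn3 and Cntn6 were in control alone and Chl1 and Cntn4 in both. Neighbouring members therefore did not share their call throughout. The share of other control-listed genes that were also in the DHT list was 38.5% from 200 to 500 kb. It was 60.3% from 500 to 1000 kb and 75.5% over 1000 kb.

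Of the other immunoglobulin superfamily members, in the NCAM, CADM, KIRREL and DSCAM families, 4 of the 6 listed were in control alone. Among other control-listed genes, 38.5% from 200 to 500 kb and 60.3% from 500 to 1000 kb were also in the DHT list. Ncam2 (423.6 kb) was in both lists and Ncam1 (297.3 kb) in control alone. Cadm1 (332.1 kb) and Cadm2 (965.5 kb), which encode SynCAM proteins, were in control alone, as was Kirrel3 (555.0 kb). Their shorter paralogs Cadm3, Cadm4, Kirrel and Kirrel2, of 9.75 to 96.2 kb, were in neither. Dscam (583.7 kb), which mediates self-avoidance of neurites, was in both lists, while its paralog Dscaml1 (326.3 kb) was in neither. Of the DPP-like proteins, which are subunits of Kv4 potassium channels, Dpp10 (1514 kb) was in both and Dpp6 (910.1 kb) in control alone. Among the 22 members over 500 kb, 22 were in the control list, and Cadm2, Cntnap5b, Cntnap5c, Dpp6, Kirrel3 and Opcml were the 6 not in the DHT list.

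Base composition was examined next. Members in both lists had a median GC content of 38.5% over the gene and those in control alone 39.0%, compared with 50.2% for members in neither. Part of this went with length, since members over 200 kb had a median of 38.9% and shorter ones 49.5%. Within the 100 to 200 kb band the 4 members separated by GC content and not by length. Lrrtm3 (40.3% GC) and Cntnap3 (38.6%) were in the control list, while Lrfn2 (166.0 kb, 48.1%) and Nrxn2 (53.6%) were not. Dscaml1, the 1 unlisted member over 200 kb, had a GC content of 49.1%, above the highest value of the 32 listed ones (45.5%, Tenm4). Other protein-coding genes over 200 kb overlapped in range. Those in both lists reached 52.1% and those in control alone 49.6%, while those in neither list went down to 34.8%. Their medians went the same way as those of the members, at 41.1% in both, 41.0% in control alone and 44.0% in neither. These sets hold 343, 416 and 145 genes, whereas the members over 200 kb include 1 unlisted gene.

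The other protein-coding genes showed a like difference in the control list. Between 100 and 200 kb, 59.4% of those at or below the median GC content of the band were in the control list, against 37.2% of those above it. From 200 to 500 kb the shares were 84.2% and 64.6%. The share was higher for the genes of lower GC content in all 6 bands of the control list. In the DHT list the order was mixed. The genes of lower GC content had the higher share under 50 kb (1.45% against 0.928%) and from 500 to 1000 kb (60.5% against 59.5%), and the lower share in the other bands, as between 100 and 200 kb (15.6% against 18.3%) and from 200 to 500 kb (33.4% against 37.0%). Of the members from 200 to 500 kb, 4 of 8 at or below the median GC content of the band were in the DHT list, and 0 of 3 above it. The part of base composition in the calls of the members was not tested.

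**Figure D3:**
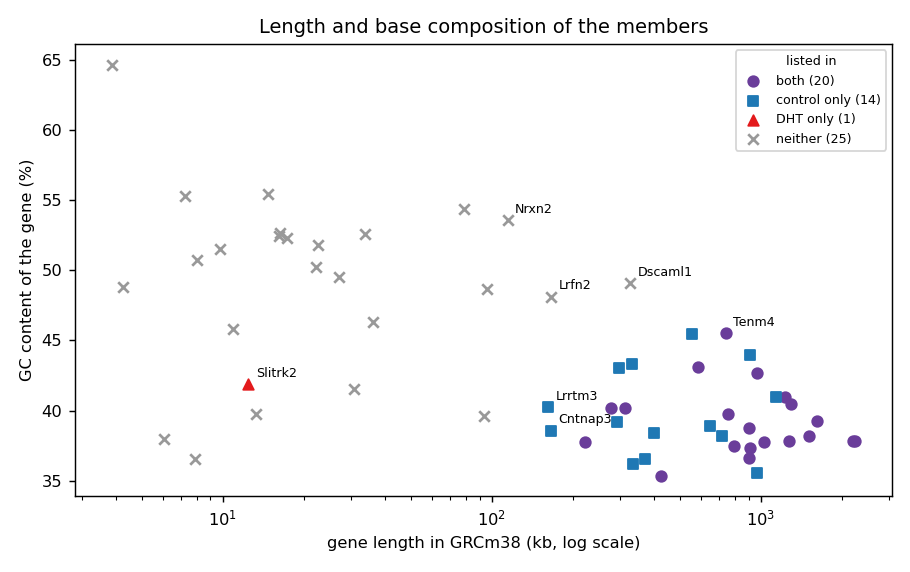
GC content of each member gene (y axis, percent) against its length (x axis, kb, log scale), with symbols for the gene body list that held it and the number of genes in the key. The 34 control-listed members lie at the lower right, from 35.4% to 45.5% GC, and the longest unlisted members, Dscaml1, Lrfn2 and Nrxn2, lie above them at 48.1% to 53.6%.

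Finally, 44 genes for binding partners were looked up. Of these receptors, secreted proteins, scaffolds and channels, 20 had a control call and 15 a DHT call, where genes of like length would have given 22.9 and 12.7. Of the 20 control-listed partners 14 were also in the DHT list, compared with 11.0 for genes of like length. Again the calls lay in long genes: of 21 partners over 200 kb, 19 had a control call and 15 a DHT call, against 1 and 0 of 23 shorter partners. Of all protein-coding genes other than members, 79.3% over 200 kb had a control call and 41.4% a DHT call. At 200 kb or less these shares were 9.86% and 2.998%. Ptprd (2271 kb), a LAR-type phosphatase that binds SLITRK proteins, was in both lists, and its shorter relatives Ptprs (64.1 kb) and Ptprf (83.2 kb) were in neither. Among the latrophilins, which bind teneurins and FLRT proteins, Adgrl3 (808.7 kb) was in both lists and Adgrl1 and Adgrl2 were in neither. The scaffold genes Dlg2 (1973 kb) and Magi1 (608.5 kb) were in both, Magi2 (1485 kb) was in control alone, and Shank2 (448.0 kb) was in neither. For the Kv4 channels bound by DPP-like proteins, Kcnd2 (514.5 kb) was in both lists and Kcnd3 (222.1 kb) in the DHT list alone.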

How the data were processed

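H3K27me3 ChIP-seq of 3 control and 3 DHT samples was used; groups followed the labelled agent. The authors aligned reads to mm9 (Bowtie2 2.3.4, uniquely mapped reads alone) and called broad peaks (MACS2 2.1.1, with a largest q-value of 0.0498 for control and 0.0450 for DHT). How replicates were combined and whether an input served as background is not given in the sources used here. The deposited peak lists give a fold enrichment (a ratio to the local background of the pool) and a −log10 q-value, and the deposited gene lists hold symbols without values.

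Symbols were matched to RefSeq GRCm38.p6 after mapping older names (3135 of 3144 for control and 1142 of 1146 for DHT gene bodies). The build differs from mm9, so it gave names, lengths, base composition and sequence only. Members were compared with other protein-coding genes in 6 bands of length: the share listed among the others was summed over the members. No test was made, because pools leave no replicate error. The calculation was tested on simulated lists in which the listing rate was constant within each band. That checked the sum and could not show whether the bands remove the effect of length. Of the matching symbols, 1 is left out by the rule and 1 is not reported here; every other member is accounted for, and members in the DHT, promoter or regulated lists are given with their length. Members and lists were chosen with earlier results of these data known. Alternatives were length classes, backgrounds, subsets of members and symbol matching. Python 3.11.15, numpy 2.4.6, scipy 1.17.1, pandas 2.3.3 and matplotlib 3.10.9 were used.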

Additional observations from a re-analysis of the deposited data

How the results depend on the processing

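No paired analysis was possible because the 3 replicates of each group are in 1 pooled list, which also kept each replicate from being left out in turn; peaks within members were not examined because the annotation was of another build. The counts relative to genes of like length were recomputed under 9 other settings, of which splitting the bands by GC content and leaving out members inside another gene were chosen after seeing the data. With 20 length classes of equal size, the DHT count was 1.49 times and the kept count 1.39 times that of genes of like length, instead of 1.07 and 1.06. The longest of those classes begins at 184.9 kb and holds 33 members with a median length of 754.7 kb and other genes with a median of 298.5 kb, so its genes are not of like length. Over all settings the ratio ran from 0.996 to 1.15 for the control list, from 1.00 to 1.49 for the DHT list and from 0.993 to 1.39 for kept members. The unknown depth of the pools limits every call: a gene without a call may carry the mark below the threshold.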
